A study of Mus musculus with 29 samples.

Results

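The integrated stress response genes examined here were Atf4, Ddit3, Trib3, Asns, Chac1, Sesn2, Gdf15, Fgf21 and Xbp1, 9 of the 22537 gene symbols in the deposited count table, chosen by name and all found there. The tissue was tibialis anterior (TA), a mostly fast-twitch muscle of the shin, taken whole, and its poly-A RNA was sequenced in 29 libraries. All mice were male C57BL/6 animals bred in the aging colony of the National Institute on Aging, had been through the same tests of physical function, and carried no engineered allele and received no drug that the labels name. The first sequencing run held 7 mice at 6 months (6m) and 7 mice at 24 months (24m), while the second held 8 mice at 28 months or older (28m) along with fresh libraries made from those 7 young mice. The numbers of mice at 24m and 28m follow the sample labels, since the design text of the series swaps them. Each library comes from 1 mouse, so the spread within a group is that between mice.

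In the integrated stress response, kinases that sense a shortage of amino acids, unfolded protein in the endoplasmic reticulum (ER), double-stranded RNA or mitochondrial failure phosphorylate the translation factor eIF2. Bulk protein synthesis slows, while translation of the mRNA of the transcription factor ATF4 increases, and ATF4 with its partners switches on genes of amino acid supply, redox balance, growth arrest and cell death. Muscle under mitochondrial or ER stress is known to release the hormones FGF21 and GDF15 by this route. The libraries measure mRNA only: eIF2 phosphorylation, ATF4 protein and the splicing of Xbp1 mRNA were not measured.

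Libraries held between 17633475 and 33499162 counts. The 12 skeletal muscle markers, all in the table, summed to between 153532 and 262118 CPM in each library, where CPM is the count scaled to a common library size. The libraries also differed in how their values ran with the length of a gene. For each library, Spearman's rho was taken across 12608 genes between exonic length and deviation from the mean of the 6m libraries. That mean covers both runs, so the 6m libraries are part of their own reference, while the 24m and 28m libraries are not. At 6m in the second run the rho was between 0.0484 and 0.283. At 28m it was between -0.539 and -0.0733, so that these groups did not overlap. In the first run it lay between -0.575 and 0.289 at 6m and between -0.424 and 0.161 at 24m. Replicate 4 of the 6m libraries in the first run had the lowest rho of all 29, at -0.575 against -0.154 for the next lowest of its group and 0.174 for the second library of the same mouse. Without this library none of the 7 members passed at 24m either.

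Of the 9 genes, 3 carried the core of a CARE, the C/EBP-ATF response element to which ATF4 binds, within 250 bases upstream of a RefSeq transcription start (GRCm38.p6). The core was searched as TGATGNAA on both strands, and it was found in Asns, Chac1 and Fgf21, which is 33.3% of the 9 genes against 3.46% of the 15722 genes of the count table that have a promoter sequence. Its first base lay at position -23 from the RefSeq start in Asns, at -193 in Chac1 and at -139 in Fgf21. The stretches are shown on the strand of the gene with the core in capitals, since ATF4 and its C/EBP partners bind such letters. They come from chr6:7693214-7693243 (minus strand) for Asns, from chr2:119351023-119351082 (plus strand) for Chac1, and from chr7:45615596-45615655 (minus strand) for Fgf21. In Chac1 and Fgf21 the core reads on the opposite strand.
Asns: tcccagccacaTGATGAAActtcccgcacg
Chac1: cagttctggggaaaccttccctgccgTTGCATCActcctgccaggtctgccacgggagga
Fgf21: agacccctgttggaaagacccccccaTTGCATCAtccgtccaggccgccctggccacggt
The letters CCACG, a part of the ER stress element that XBP1 and ATF6 recognise, were found on either strand in 5 of the 9 genes (55.6%) against 36.4% of all genes, and some of these copies lie inside the stretches above. The unfolded protein response element TGACGTG and the cyclic AMP element TGACGTCA were in none of the 9 windows, against 2.07% and 2.28% of all genes. A match describes these letters in this window only.

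At 28m, transcripts of Asns, Trib3 and Xbp1 were higher than in the 6m libraries of the second run, by 1.61-fold, 1.46-fold and 1.36-fold in mean CPM (n = 8 and n = 7). Those of Atf4, Ddit3, Chac1 and Sesn2 did not pass the test, and Gdf15 and Fgf21 were too low for the filter on counts. Thus 3 of the 7 members tested passed edgeR's quasi-likelihood test at an adjusted p below 0.05, all of them as higher. This share is to be read against a background in which 47.3% of the 12994 genes tested passed, 24.3% as higher and 22.9% as lower. For no member did the 8 mice at 28m lie all above or all below the 7 mice at 6m, which was the case for 12.3% of the genes tested. In whole muscle, fewer cells of a type and less RNA per cell cannot be told apart: at 28m, 6 of the 7 endothelial and 5 of the 8 fibroblast markers were lower, and 2 of the 7 adipocyte markers were higher.

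**Figure D1:**
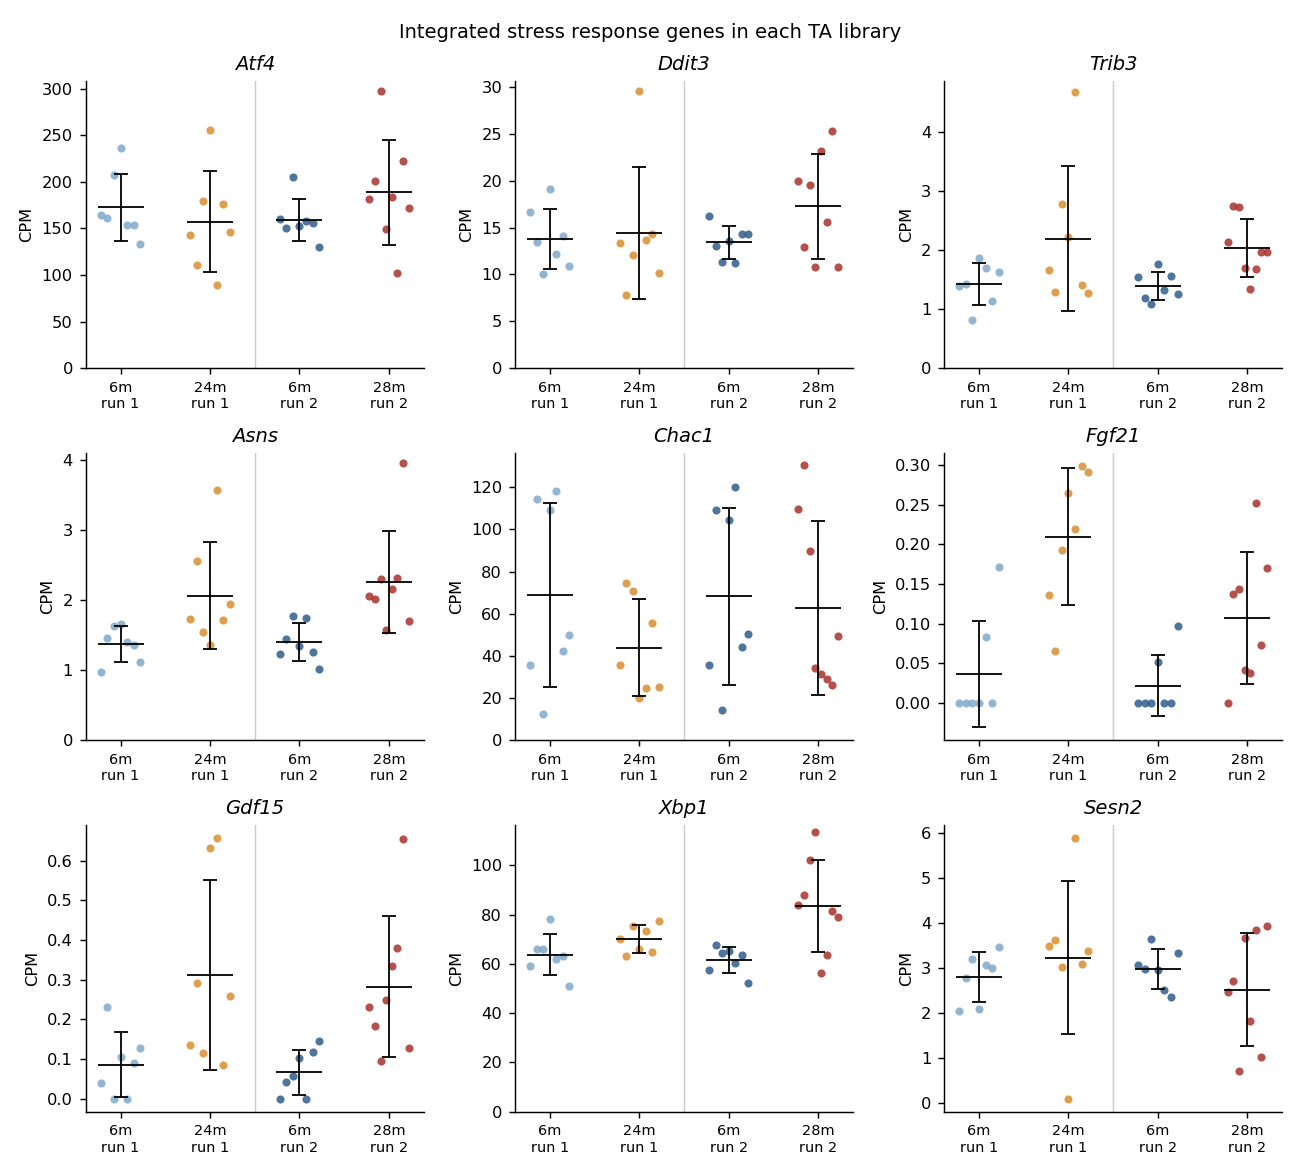
CPM (vertical axes, each with its own scale) of the 9 genes in each of the 29 libraries, by age and run; each point is 1 mouse, and black bars give the mean and SD. Asns, Trib3 and Xbp1 sit higher at 28m than at 6m of the same run with overlap in all 3, Chac1 spreads widely at every age, and Sesn2 falls away in some old mice.

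Atf4 (chr15:80255184-80257541, plus strand, GENCODE positions on GRCm38 here and for the other members) encodes the transcription factor at the centre of the response. Its level ran from 130 to 205 CPM at 6m in the second run (median 156) and from 102 to 298 CPM at 28m (median 183). The old mice spread to both sides of the young ones, with 2 above all of them and 1 below. Between the ages Atf4 had a log2 fold change of 0.26 ± 0.17 (SE), with an adjusted p of 0.214 by edgeR's quasi-likelihood test. Ddit3 (chr10:127290774-127296288, plus strand) encodes CHOP, a transcription factor linked to cell death under prolonged stress. It ran from 11.2 to 16.2 CPM at 6m (median 13.6) and from 10.8 to 25.3 CPM at 28m (median 17.5). Of the 8 old mice, 4 lay above all young mice and 2 below them. Its log2 fold change of 0.37 ± 0.18 (SE) did not pass the test, with an adjusted p of 0.104 by edgeR. Ddit3 shares part of its span with Mars on the other strand, and the strand setting of the counting is not given in the sources used here, so reads of these 2 genes may be mixed.

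Trib3 (chr2:152337422-152344032, minus strand) encodes a pseudokinase induced by ATF4 and CHOP that damps AKT signalling and the response itself. It ran from 1.08 to 1.76 CPM at 6m (median 1.31) and from 1.34 to 2.75 CPM at 28m (median 1.96). All 8 old mice lay above the median of the young ones and 5 above all of them. The log2 fold change was 0.55 ± 0.17 (SE), with an adjusted p of 0.0160 by edgeR. With each library corrected for its dependence on exonic length and GC content, the value was 0.34 (adjusted p of 0.138 by edgeR). With first-run libraries as the young group it was 0.52 (adjusted p of 0.0607 by edgeR), and with 6m replicate 4 of that run left out it was 0.59 and passed (adjusted p of 0.0335 by edgeR). Asns and Xbp1 kept their calls in all 3 of these fits.

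Asns (chr6:7675169-7693254, minus strand) encodes asparagine synthetase, the classical target of ATF4 under amino acid shortage. Among the 3 genes with a CARE core, its core lay closest to the RefSeq start. That core lies inside the GENCODE span of Asns, so it is upstream of the RefSeq start but not of the GENCODE start. It ran from 1.01 to 1.77 CPM at 6m (median 1.34) and from 1.58 to 3.95 CPM at 28m (median 2.10). All 8 old mice lay above the median of the young ones, 6 of them above all young mice. The log2 fold change of 0.70 ± 0.20 (SE) was the largest among the 7 members tested, with an adjusted p of 0.00980 by edgeR. After correction for length and GC content it was 0.47, with an adjusted p of 0.0461. The highest mouse was replicate 7, at 3.95 CPM. In the same library the 11 immune markers in the table (of 12 listed) summed to 668 CPM, against 83.3 to 132 CPM in the other 28m mice and 60.1 to 205 CPM at 6m in the second run, with none of the 11 at 0 throughout a group. Without this mouse the log2 fold change of Asns was 0.54 and still passed, as it did in each of the 15 fits that left out 1 library.

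Xbp1 (chr11:5520659-5525893, plus strand) encodes the transcription factor of the IRE1 branch of the ER response, and its transcription is raised by ATF6. It ran from 52.2 to 67.5 CPM at 6m (median 63.7) and from 56.4 to 113 CPM at 28m (median 82.6). Of the 8 old mice, 6 lay above all young mice and the other two within their range. On the log2 scale the difference was 0.44 ± 0.12 (SE), with an adjusted p of 0.00946 by edgeR. It passed in each of the 15 fits without 1 library, and after correction for length and GC content it was 0.38 with an adjusted p of 0.0309.

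Chac1 (chr2:119351229-119354381, plus strand) encodes an enzyme that degrades glutathione, and it is a target of ATF4 and CHOP. In TA muscle it ran from 14.1 to 120 CPM at 6m in the second run (median 50.4) and from 26.02 to 131 CPM at 28m (median 41.9). All old mice except 1 lay within the range of the young ones. For Chac1 the log2 fold change was -0.13 ± 0.44 (SE), with an adjusted p of 0.823 by edgeR. The standard error was the largest among the 7 members tested. Sesn2 (chr4:132492032-132510501, minus strand) encodes sestrin 2, a stress-induced inhibitor of mTORC1 that also senses leucine. It ran from 2.35 to 3.65 CPM at 6m (median 2.98) and from 0.719 to 3.92 CPM at 28m (median 2.59). In 3 old mice it was below all young mice, and in 3 others above all of them. For Sesn2 the log2 fold change was -0.23 ± 0.29 (SE), with an adjusted p of 0.519 by edgeR.

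**Figure D2:**
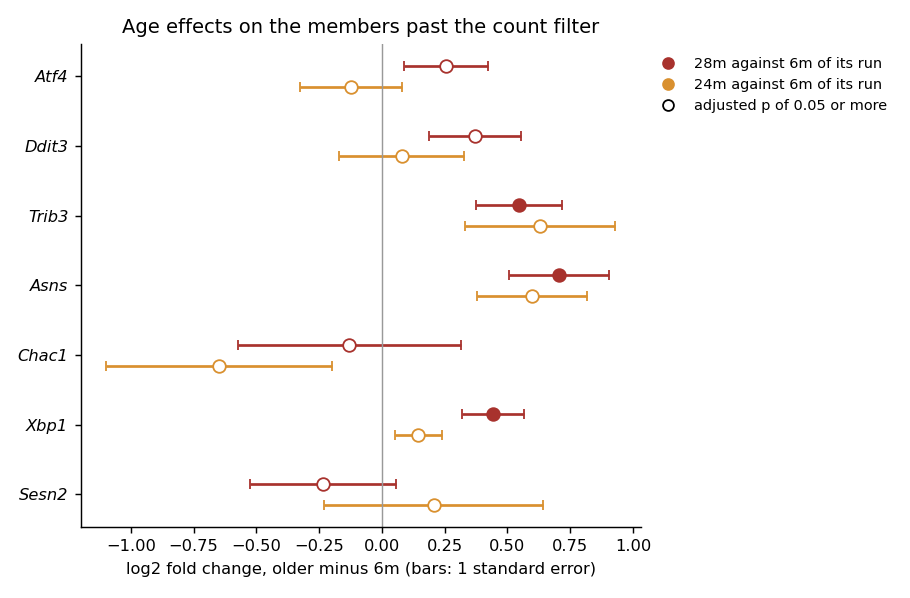
Log2 fold change (horizontal axis, older minus 6m of the same run) of the 7 members past the count filter at 28m (red) and 24m (orange); bars give 1 SE and filled points passed edgeR's quasi-likelihood test. Trib3, Asns and Xbp1 are filled at 28m with values from 0.44 to 0.70, and no point is filled at 24m.

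The 2 hormones of the group, Gdf15 (chr8:70629393-70632456, minus strand) and Fgf21 (chr7:45613886-45615490, minus strand), were close to the limit of detection in TA muscle. GDF15 acts on a receptor in the hindbrain to curb appetite, and FGF21 acts on liver, fat and brain metabolism. Gdf15 had between 0 and 3 counts in each 6m library of the second run, 10 in all, and between 2 and 18 counts at 28m, 57 in all. In CPM the 28m mice ran from 0.0959 to 0.653 (median 0.241) and the 6m mice from 0 to 0.145 (median 0.0570). Of the 8 old mice, 6 lay above all young mice. The ratio of the summed counts per library size was 4.46 (95% exact interval 2.26 to 9.81, which covers counting error only). An exact two-sided permutation test of CPM over mice gave p = 0.00311, and 0.00622 after Benjamini-Hochberg adjustment over the 4 tests of the hormones. In edgeR's fit without a filter on low counts, in which 31.8% of 18670 genes passed and 16.5% as higher, its adjusted p was 0.00866. That held in each of the 15 fits without 1 library, up to an adjusted p of 0.0198. The highest value was again in replicate 7, the library with the high sum of immune markers, and the log2 fold change was 1.73 without it and 2.03 with it.

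Fgf21 had 3 counts in all at 6m in the second run, with 5 of the 7 libraries at 0, and 20 counts at 28m, with 1 of the 8 libraries at 0. In CPM it ran from 0 to 0.0966 at 6m (median 0) and from 0 to 0.253 at 28m (median 0.105). Of the 8 old mice, 4 lay above all young mice. The ratio was 5.22 with a wide 95% exact interval of 1.55 to 27.4 from counting alone, and the exact permutation p was 0.0255 (0.0255 adjusted over the 4 tests). Its adjusted p was 0.0493 by edgeR without a filter on low counts and 0.0531 by DESeq2. The call was lost in 10 of the 15 fits without 1 library, in which the adjusted p reached 0.0979. With Gdf15 and Fgf21 counted, 5 of the 9 members passed as higher in the fit without a filter. In that fit 31.8% of 18670 genes passed, 16.5% as higher.

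At 24m none of the 7 members tested passed, in a comparison in which 0.0840% of the 13103 genes tested passed, 0.0611% as higher. Across all genes 11 passed by edgeR's quasi-likelihood test and 215 by DESeq2, while 1546 genes reached an unadjusted p under 0.05, Asns being the only member among them in edgeR's fit. For no member did the 24m mice lie all above or all below the young mice, as they did for 0.595% of the genes tested. Both comparisons rest on libraries of the same 7 young mice. The log2 fold changes of Asns and Trib3 were 0.60 and 0.63 here and 0.70 and 0.55 at 28m, with larger errors here.

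Asns ran from 0.978 to 1.66 CPM at 6m in the first run (median 1.40) and from 1.36 to 3.57 CPM at 24m (median 1.73). Of the 7 older mice, 5 lay above all young mice. The log2 fold change was 0.60 ± 0.22 (SE), with an unadjusted p of 0.0157 and an adjusted p of 0.342 by edgeR. Trib3 ran from 0.813 to 1.87 CPM at 6m (median 1.43) and from 1.26 to 4.67 CPM at 24m (median 1.66). The mean at 24m rested in part on replicate 5, with 4.67 CPM. The log2 fold change was 0.63 ± 0.30 (SE, adjusted p of 0.425 by edgeR) with this mouse and 0.33 without it. That of Asns was 0.42 without this mouse. In its library the 12 skeletal muscle markers summed to 153532 CPM, the lowest of the 29 libraries. The part of this in the values was not tested.

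Xbp1 ran from 51.0 to 78.3 CPM at 6m in the first run and from 63.0 to 77.5 CPM at 24m, all within the range of the young mice, and its log2 fold change was 0.14 ± 0.09 (SE). Atf4 ran from 133 to 236 CPM at 6m and from 89.7 to 255 CPM at 24m, and its log2 fold change was -0.12 ± 0.20 (SE). Ddit3 ran from 10.03 to 19.1 CPM at 6m and from 7.84 to 29.5 CPM at 24m, and its log2 fold change was 0.08 ± 0.25 (SE). The highest mouse at 24m in both Atf4 and Ddit3 was replicate 4. Without it the log2 fold change of Atf4 was -0.29 and that of Ddit3 -0.21. Without replicate 5, which had the lowest Atf4 of its group, that of Atf4 was -0.018. Chac1 ran from 12.5 to 118 CPM at 6m and from 19.8 to 74.7 CPM at 24m, so that all 7 older mice lay within the range of the young ones. Its log2 fold change was -0.65 ± 0.45 (SE). Sesn2 ran from 2.04 to 3.46 CPM at 6m and from 0.0996 to 5.89 CPM at 24m, and its log2 fold change was 0.21 ± 0.44 (SE). By edgeR the adjusted p of these 5 genes was between 0.524 for Xbp1 and 0.902 for Ddit3.

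Gdf15 had 15 counts at 6m in the first run and 66 at 24m. In CPM it ran from 0 to 0.232 at 6m (median 0.0907) and from 0.0855 to 0.658 at 24m (median 0.259). The ratio of summed counts was 3.60 (95% exact interval 2.03 to 6.79), with an exact permutation p of 0.0216 (0.0255 adjusted over the 4 tests). Fgf21 had 6 counts at 6m in the first run, with 5 of the 7 libraries at 0, and 42 counts at 24m, with no library at 0. In CPM it ran from 0 to 0.171 at 6m and from 0.0648 to 0.299 at 24m, and 5 of the 7 older mice lay above all young ones. The ratio was 5.73 (95% exact interval 2.42 to 16.5), with an exact permutation p of 0.00291 (0.00622 adjusted). Neither gene passed at 24m when all genes were tested together without a filter, with adjusted p of 0.346 for Gdf15 and 0.248 for Fgf21 by edgeR. The exact tests of these 2 genes were added after the data were seen.

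Denervation markers differed widely among the old mice, and the mice with the highest sums held both high and low values of the members. The summed level of 14 denervation-response genes, all in the table and none at 0 throughout a group, ran from 83.9 to 195 CPM at 6m in the first run and from 121 to 1446 CPM at 24m. The highest sums at 24m were 1446 CPM in replicate 5, which had the highest Trib3, Asns, Gdf15 and Sesn2 of its group but the lowest Atf4 (89.7 CPM), and 1123 CPM in replicate 4, which had the highest Atf4 and Ddit3 but the lowest Chac1, Asns and Sesn2. At 28m the sums ran from 142 to 833 CPM, against 100 to 207 CPM at 6m in the second run. By edgeR 7 of the 14 genes were higher at 28m and 1 lower, where 24.3% of all genes were higher and 22.9% lower. At 24m none of the 14 passed by edgeR. There 10 of them had an unadjusted p under 0.05, as had 1546 of the 13103 genes tested. The highest sum at 28m was that of replicate 6, which had the lowest Atf4 of its group (102 CPM) and the highest Fgf21 (0.253 CPM). Their part in the results was not tested.

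The test of the difference between the 28m and the 24m effect passed for none of the 7 members, nor for any of the 13455 genes tested (0%) by edgeR's quasi-likelihood test, and for 2 genes by DESeq2. At an unadjusted p under 0.05 stood 1611 genes in edgeR's fit without the mouse, no member among them. The log2 differences ran from -0.43 ± 0.53 (SE) for Sesn2 to 0.55 ± 0.67 (SE) for Chac1. Both young groups are the same 7 mice, and with the mouse as a block these 2 values were -0.10 and 0.42. That fit used limma-voom in place of edgeR, so the block and the tool changed together. For Asns the difference was 0.13 ± 0.29 (SE) and for Xbp1 0.32 ± 0.16 (SE), the latter with an adjusted p of 0.425 by edgeR. In the limma-voom fit with the mouse as a block Xbp1 stood at 0.28 ± 0.13 (SE), with an unadjusted p of 0.0323 and an adjusted p of 0.201. With 24m replicate 4 left out, 1657 of all genes passed but still no member. A pass at 28m and a miss at 24m is therefore not shown to be a difference between the ages for any of these genes.

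The repeated libraries of the 7 mice at 6m differ only in the run and the library. None of the 7 members passed the test between the runs, with log2 fold changes from -0.12 for Atf4 to 0.08 for Sesn2. In that comparison 0% of the 12884 genes passed by edgeR's quasi-likelihood test, 357 had an unadjusted p under 0.05 and DESeq2 called 0. These fits took the 2 libraries of a mouse as independent. With the mouse as a block in edgeR, again no member and no gene passed. The log2 fold changes then ran from -0.11 for Atf4 to 0.08 for Sesn2, and the SE for Chac1 was 0.040 instead of 0.49. The repeats also separate the spread between mice from that between libraries. Chac1 differed 9.44-fold between the lowest and the highest mouse in the first run and 8.52-fold in the second, yet its 2 libraries of the same mouse differed by at most 1.13-fold, and all 7 mice kept their rank. In the second run 4 mice lay between 14.1 and 50.4 CPM and the other three between 104 and 120 CPM. Xbp1 differed 1.54-fold between mice in the first run and 1.29-fold in the second, and its libraries of a mouse by a median of 1.03-fold and at most 1.20-fold. In Sesn2, with 40 to 84 counts per library in the first run, the repeats differed by a median of 1.22-fold and at most 1.5-fold, and the mice by 1.70-fold. In Trib3, with 18 to 43 counts, the repeats differed by a median of 1.29-fold and at most 1.38-fold, and the mice by 2.30-fold in the first run and 1.62-fold in the second.

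**Figure D3:**
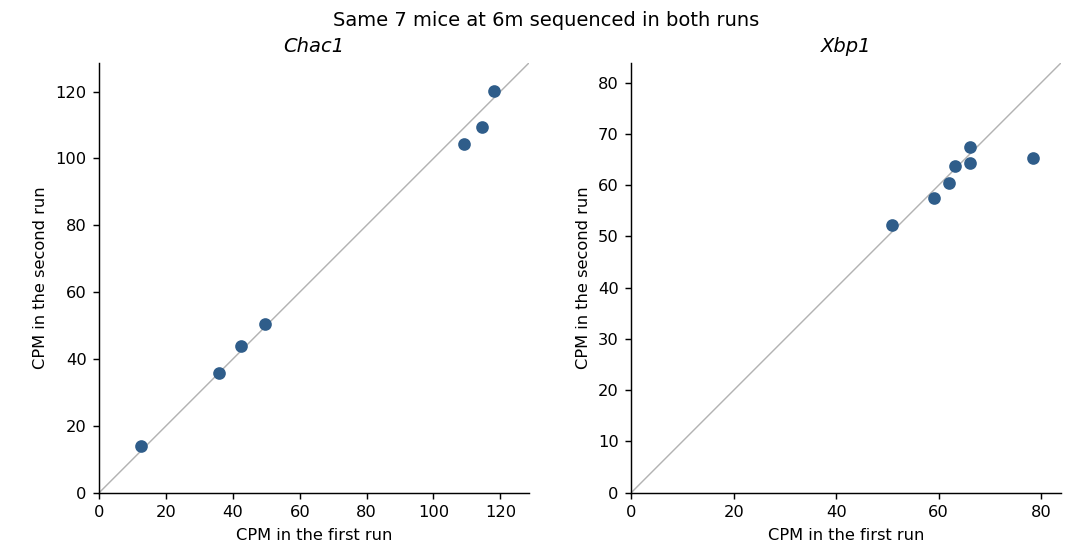
CPM of Chac1 and Xbp1 in the first run (horizontal axis) and in the second run (vertical axis) for the 7 mice at 6m, each point 1 mouse, with the line of equal values. Chac1 stays on the line over a 9.44-fold range, and 1 mouse leaves the line in Xbp1, with a 1.20-fold difference between its libraries.

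Sesn2 was below all young mice in single old mice. At 28m it was 0.719 CPM in replicate 3, 1.02 CPM in replicate 7 and 1.82 CPM in replicate 5, while the other 5 mice lay between 2.48 and 3.92 CPM. At 24m replicate 4 had 3 counts, or 0.0996 CPM, while the other 6 mice lay between 3.02 and 5.89 CPM. As a measure of spread, the mean absolute deviation from the group median on the log2 CPM scale was 0.66 at 28m and 0.15 at 6m for Sesn2, and 0.41 and 0.14 for Ddit3. Exact permutation tests, two-sided, gave p = 0.0263 and p = 0.0157. After adjustment over the 14 tests of 7 members at 2 ages both stood at 0.184 and failed.

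The old mice with low Sesn2 had a strong length trend, but not every library with such a trend had low Sesn2. The rho with exonic length was -0.539, -0.532 and -0.511 in 28m replicates 3, 7 and 5, and -0.424 in 24m replicate 4, the lowest value of its group. The rho was also -0.512 and -0.486 in 28m replicates 1 and 2, with Sesn2 at 2.48 and 2.70 CPM, within the range of the young mice. In the 6m library of the first run with the lowest rho of all, replicate 4, Sesn2 was 2.08 CPM, next to the lowest of its group, and 2.94 CPM in the second library of that mouse. In 28m replicates 4, 6 and 8, the libraries with values nearest 0, Sesn2 was between 3.66 and 3.92 CPM and Atf4 between 102 and 171 CPM. Atf4 and Ddit3 were high in some of these libraries, with 298 and 19.5 CPM in 28m replicate 3 and 255 and 29.5 CPM in 24m replicate 4. In 6m replicate 4 of the first run they were 236 and 19.1 CPM, the highest of that group, against 152 and 13.6 CPM in the second library of the mouse. This did not hold throughout: Ddit3 was 12.97 CPM in 28m replicate 2 (rho of -0.486) and 12.1 CPM in 24m replicate 3 (rho of -0.352), and the highest Atf4 at 6m in the second run, 205 CPM, was in a library with a rho of 0.154. With the dependence on length and GC content removed, the log2 fold change at 28m was -0.11 for Ddit3, 0.05 for Atf4 and -0.23 for Sesn2, none of which passed. In that fit 2 of the 7 members passed, Asns and Xbp1, against 37.3% of all genes, 21.6% as higher.

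**Figure D4:**
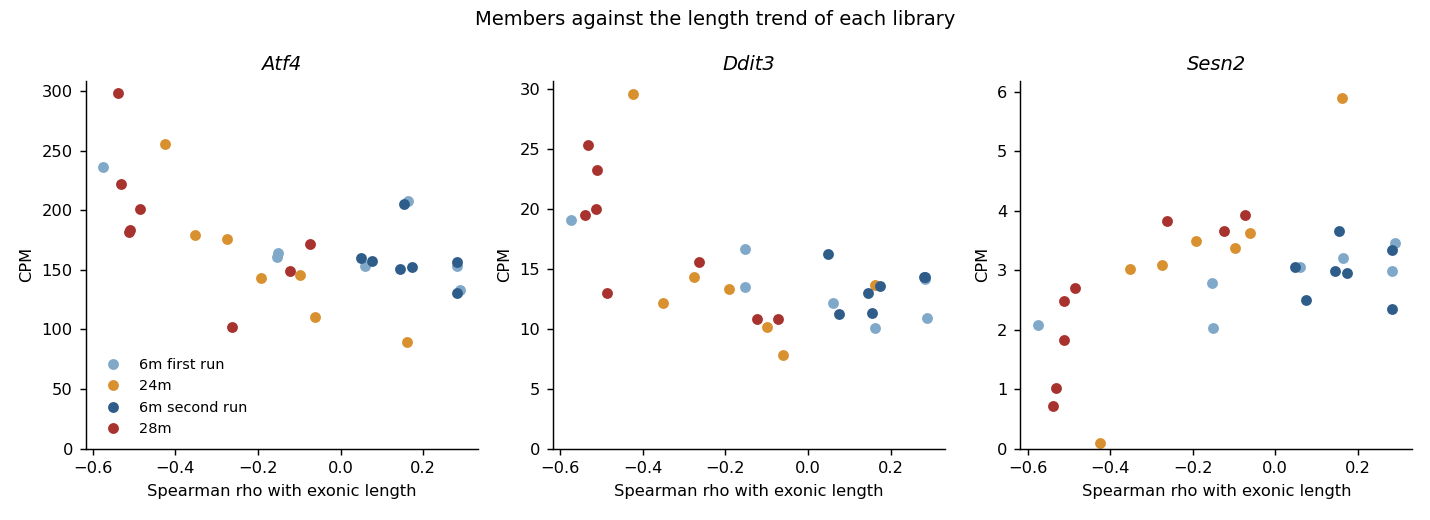
CPM of Atf4, Ddit3 and Sesn2 (vertical axes) against Spearman's rho of each library with exonic length (horizontal axis), each point 1 of the 29 libraries, coloured by age and run. The highest Ddit3 and the lowest Sesn2 values, such as 29.5 and 0.0996 CPM in 24m replicate 4, lie on the left, while the library farthest to the left, 6m replicate 4 of the first run, holds 19.1 and 2.08 CPM.

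Across the 8 mice at 28m, the 21 pairs among the 7 members tested were compared on the log2 CPM scale, and no pair passed the adjustment over the 21. The lowest p was that of Ddit3 with Asns (r = 0.777, exact permutation p = 0.00499, adjusted p = 0.0573, and rho = 0.762, p = 0.0368, adjusted p = 0.193). Without the 2 mice farthest from the median of Ddit3, r was 0.592. It was followed by Atf4 with Sesn2 (r = -0.830, exact permutation p = 0.00546, adjusted p = 0.0573, and rho = -0.857, p = 0.0107, adjusted p = 0.193), with r = -0.807 without 2 mice. After correction for length and GC content these values of r were 0.591 and -0.629, with adjusted p of 0.345 for both by the exact permutation test. Chac1 at 28m was between 89.6 and 131 CPM in replicates 1, 2 and 3 and between 26.02 and 49.3 CPM in the other 5 mice, so no correlation is given for it. Replicates 1, 2 and 3 were also the highest in Trib3, between 2.13 and 2.75 CPM, and the pair of Trib3 and Chac1 did not pass (adjusted p = 0.117 by the exact permutation test over the 21 pairs).

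Levels of different genes can be set side by side only per length. Per kilobase of exonic length, the order at 6m in the second run was Atf4 with 67.3 ± 9.57 CPM (SD, n = 7), Chac1 with 41.7 ± 25.7, Xbp1 with 18.96 ± 1.63, Ddit3 with 7.84 ± 1.04, Sesn2 with 0.856 ± 0.129, Trib3 with 0.653 ± 0.113, Asns with 0.512 ± 0.101, Gdf15 with 0.0359 ± 0.0308 and Fgf21 with 0.0223 ± 0.0404 CPM per kilobase. Chac1 overlapped both of its neighbours, Trib3 overlapped Sesn2 and Asns, and Gdf15 overlapped Fgf21, within 1 SD. At 28m Trib3 (0.956 ± 0.234, n = 8) and Asns (0.826 ± 0.268) stood above Sesn2 (0.725 ± 0.361) in this order, with overlap within 1 SD among all 3. These 3 genes have 2125, 2735 and 3475 exonic bases, and the values are not corrected for the length trend of the libraries. The change in order is therefore not shown to be free of that trend.

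The genes most like Atf4 over the 15 libraries of the second run, each centred on the mean of its age, were Gemin6 with r = 0.949, Eif2s2 with r = 0.943 and Rer1 with r = 0.943. Those most like Gdf15 were Pgam1 with r = 0.816, Nt5c3l with r = 0.793 and Tlr2 with r = 0.793. These are descriptions over libraries that share the length trend.

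The other genes of the pathway were taken from 8 lists, read against the same 47.3% of genes passing at 28m. A lack of overlap between the groups, given below for some genes, is to be read against 12.3% of the 12994 genes tested. The genes named are the largest calls of their lists, a choice that favours a lack of overlap. Among the kinases, subunits and phosphatases that act on eIF2, 7 of the 19 tested were higher and 3 lower. Eif2s2, the beta subunit of eIF2, rose from 126 ± 9.80 CPM at 6m (SD, n = 7) to 186 ± 61.1 CPM at 28m (n = 8), with a log2 fold change of 0.57 and an adjusted p of 0.0137 by edgeR. Eif2b3, a subunit of the exchange factor eIF2B, rose from 18.5 ± 1.21 to 26.1 ± 3.43 CPM, and its groups did not overlap. The kinase Eif2ak4 (GCN2), which senses uncharged tRNA, fell from 8.09 ± 0.763 to 6.02 ± 1.59 CPM, and its activator Gcn1l1 fell from 74.0 ± 4.69 to 44.0 ± 24.7 CPM. The median log2 fold change of this list was 0.03, against 0.01 over all genes tested.

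Among other transcription factors and short regulators of the response, 8 of the 19 tested were higher and 1 lower, with a median log2 fold change of 0.19. Ddit4, an inhibitor of mTORC1 also known as REDD1, rose from 9.58 ± 2.59 to 20.2 ± 6.73 CPM, in 7 of 8 mice above all young mice. Cebpd, a C/EBP factor, rose from 15.1 ± 6.08 to 32.1 ± 20.8 CPM. Vldlr, a lipoprotein receptor, fell from 730 ± 72.1 to 462 ± 132 CPM.

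Of the 16 enzymes of amino acid and one-carbon metabolism tested, 6 were higher and 1 lower at 28m, and their median log2 fold change was 0.21. Mthfd1l, a mitochondrial folate enzyme, rose from 0.767 ± 0.311 to 1.58 ± 0.858 CPM. Cth, which makes cysteine from cystathionine, rose from 1.81 ± 0.541 to 3.69 ± 0.660 CPM, with all 8 old mice above all young mice, as in Eif2b3. Aldh18a1, an enzyme of proline synthesis, fell from 5.80 ± 1.51 to 3.77 ± 1.33 CPM. Of the 7 amino acid transporters tested, none was higher and 1 was lower, with a median log2 fold change of -0.06. This was Slc38a2, a carrier of neutral amino acids, which fell from 166 ± 55.2 to 109 ± 25.2 CPM. Of the 20 cytosolic aminoacyl-tRNA synthetases, which load amino acids onto tRNA, 6 were higher and 1 lower, with a median of 0.14. Hars rose from 32.3 ± 0.773 to 44.2 ± 3.59 CPM and Kars from 113 ± 6.19 to 142 ± 14.9 CPM, both with no overlap between the groups, while Iars fell from 101 ± 6.09 to 69.2 ± 27.0 CPM.

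The genes of the ER unfolded protein response split by direction, with 11 of the 29 tested higher and 5 lower and a median log2 fold change of 0.09. Sdf2l1, an ER luminal protein, rose from 2.48 ± 0.414 to 4.72 ± 1.54 CPM, and Manf, a secreted ER stress protein, rose from 13.5 ± 1.33 to 21.8 ± 5.94 CPM with all 8 old mice above all young mice. Of the sensors, Ern1 (IRE1), whose enzyme splices Xbp1 mRNA, fell from 11.1 ± 1.10 to 4.83 ± 3.93 CPM with all 8 old mice below all young mice, and Atf6 fell from 45.6 ± 1.70 to 30.3 ± 12.5 CPM. Of 12 genes of mitochondrial stress sensing and chaperones, 3 were higher and none lower, with a median of -0.02. Hspe1, a mitochondrial chaperonin, rose from 34.4 ± 5.03 to 48.0 ± 16.8 CPM, and Clpp, a matrix protease, from 30.9 ± 1.45 to 42.4 ± 11.1 CPM. Of the 3 receptors of GDF15 and FGF21 that could be tested, Ret, the signalling partner of the GDF15 receptor, fell from 5.58 ± 1.15 to 2.21 ± 0.701 CPM with no overlap between the groups. The adjusted p by edgeR of the genes named from these lists by the rule was between 0.000347 for Hars and 0.0409 for Gcn1l1. Of these 21 named genes, 13 kept their call after correction for length and GC content. The calls of Hspe1, Clpp, Atf6, Ern1, Slc38a2, Sdf2l1, Eif2ak4 and Gcn1l1 were lost, with log2 fold changes in that fit of -0.06 for Hspe1 and 0.02 for Clpp, but -0.97 for Ern1 (adjusted p of 0.0606 by edgeR) and 0.48 for Sdf2l1 (0.0519). With first-run libraries as the young group 10 of the 21 kept their call, and those of Eif2s2, Eif2ak4, Gcn1l1, Cebpd, Mthfd1l, Aldh18a1, Iars, Atf6, Ern1, Hspe1 and Clpp were lost. The log2 fold changes of 3 of these were close to those with young libraries of the same run, at 1.05 against 1.06 for Mthfd1l, 0.95 against 1.08 for Cebpd and -0.57 against -0.61 for Aldh18a1. With 6m replicate 4 of that run left out, Eif2s2, Mthfd1l and Clpp passed again and the other 8 did not, Ern1 among them with a log2 fold change of -1.08 and an adjusted p of 0.0937 by edgeR. In the 15 fits that left out 1 library, 14 of the 21 kept their call throughout, while Gcn1l1 and Ern1 each lost it in 11 fits, Hspe1 in 10, Aldh18a1 in 6, Iars in 4, and Cebpd and Eif2ak4 in 1 each. At 24m none of the 125 genes tested from the 8 lists passed by edgeR, against 11 of 13103 genes in all. By DESeq2 1 of 131 did, against 215 of 15331. At an unadjusted p under 0.05 by edgeR stood 18 of the 125, against 1546 of the 13103. In the difference between the ages none passed by either tool. There 11 of 126 had an unadjusted p under 0.05 by edgeR, against 1611 of 13455 genes in all.

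**Figure D5:**
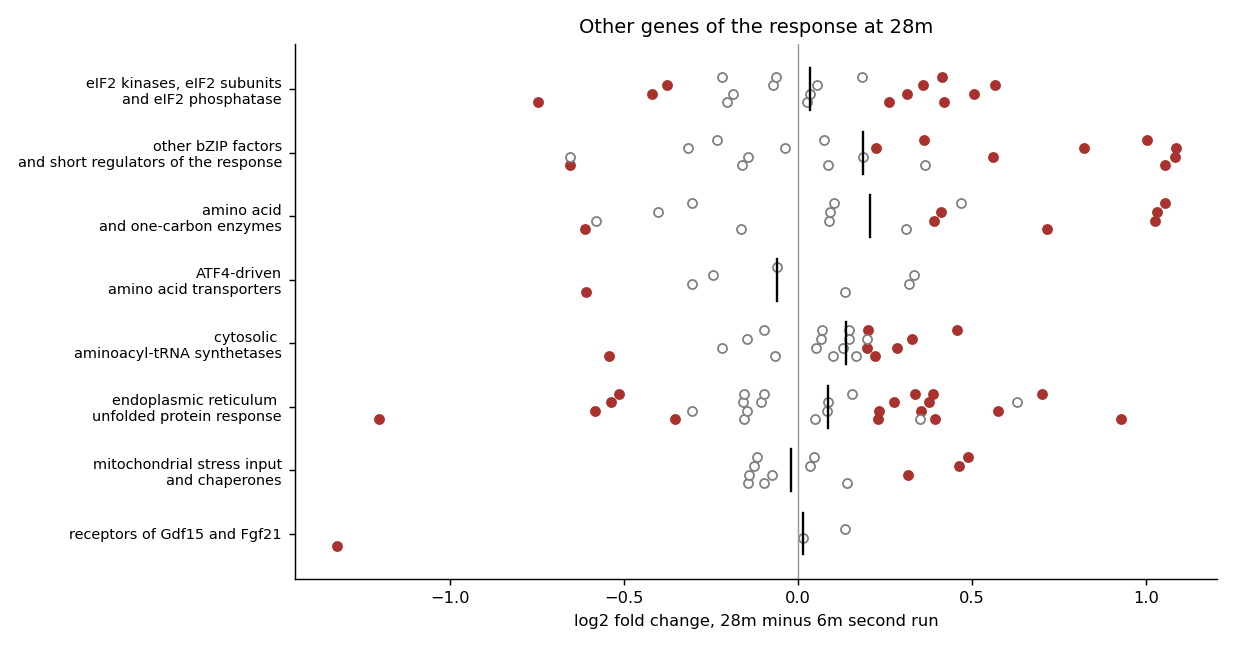
Log2 fold change (horizontal axis, 28m minus 6m of the second run) of the tested genes of 8 lists of the pathway; filled points passed edgeR's test and black lines mark the median of a list. Medians lie between -0.06 and 0.21, and the transporters and the receptors each hold 1 filled point, on the lower side.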

How the data were processed

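Single-end reads of 75 bases were aligned by the authors with STAR 2.5.4b (mm10), and the deposited values are whole-number read counts of 22537 gene symbols, not normalized; the strand setting is not given in the sources used here. Counts were tested with edgeR 4.0.16 (filterByExpr, TMM scaling, quasi-likelihood F test, Benjamini-Hochberg adjustment over all genes tested, calls at 0.05) between 28m and 6m of the second run, 24m and 6m of the first run, the difference of these effects, and the runs at 6m. CPM used TMM over all 29 libraries and log2 CPM a prior count of 2. Members, lists and tests were chosen with earlier results of these data known. Named genes were all members and, per list, the 2 largest rises and 2 largest falls among calls at 28m, plus any call at 24m, and the 3 genes most like Atf4 and Gdf15. Alternatives were DESeq2 1.42.0, limma-voom 3.58.1, other scalings and filters, a spline of exonic length and GC content taken out per library, young libraries of the other run, each library left out, and the mouse as a block. The block was fitted in limma-voom for the difference of the effects and in edgeR between the runs. Column names identify the young mice, and their 2 libraries deviated together, with correlations of 0.213 to 0.845 across 12721 genes. Lengths and positions came from GENCODE on GRCm38 (20202 symbols matched directly and 1888 by synonym) and promoters from RefSeq. Scripts were tested on simulated data.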

Additional observations from a re-analysis of the deposited data

Results flagged for a closer look

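Each of 9 genes in 4 groups was examined for 1 library far from the others of its group by Dixon's ratio, in 36 tests, of which chance would mark about 1 in 20, and 3 were marked. Atf4 was 205 CPM in replicate 3 at 6m in the second run, against 130 to 160 CPM in the other 6 libraries; the first library of this mouse held 207 CPM. Ddit3 was 29.5 CPM in replicate 4 at 24m, against 7.84 to 14.3 CPM in the other 6 mice, and this library also held the highest Atf4 and the lowest Sesn2 of its group. Asns was 3.95 CPM in replicate 7 at 28m, against 1.58 to 2.32 CPM in the other 7 mice, and this library held the highest Gdf15 and Ddit3 of its group. No cause was tested.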

How the results depend on the processing

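At 28m, 3 of the 7 members tested passed, against 47.3% of all genes. Without a filter on low counts 5 of 9 did, against 31.8% of all genes. The fits without 1 library gave 3 to 4 members and 5297 to 6688 genes in all. With young libraries of the other run 2981 of all genes passed, and 4820 with its replicate 4 left out. In these 2 fits the calls of the lists were 3 and 8 for the genes acting on eIF2, 3 and 6 for amino acid and one-carbon enzymes, 2 and 3 for tRNA synthetases, 4 and 8 for the ER response and 0 and 2 for mitochondrial genes. After correction for length and GC content they were 5 for the genes acting on eIF2, 12 for tRNA synthetases, 8 for the ER response and 3 for the receptors, with log2 fold changes of -0.11 for Ddit3 and -0.063 for Hspe1. Upper-quartile scaling gave 11 tRNA synthetases, and it, the size factors of DESeq2 and a minimum of 10 counts in every library each gave 2 transporters. Without 1 library, 1 to 2 transporters and 4 to 7 tRNA synthetases passed, the 4 without 28m replicate 2, and Chac1 ran from -0.37 to 0.063. The log2 fold change of Atf4 ran from 0.14 without 28m replicate 3 to 0.35 without 28m replicate 6, where Atf4 passed. That of Sesn2 ran from -0.35 without 28m replicate 8 to -0.092 without 28m replicate 3. Ddit3 passed without 28m replicate 4 or 8.

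At 24m, 215 of all genes passed by DESeq2, 4 with at least 10 counts in every library, 17 after correction for length and GC content, 46 against the other run, and 4 to 30 without 1 library, the 30 without 24m replicate 4. The log2 fold change of Ddit3 was -0.0088 by limma-voom and -0.16 after the correction, and from -0.21 to 0.18 without 1 library. That of Sesn2 was -0.31 by limma-voom and from -0.0030 to 0.42 without 1 library, the lowest without 24m replicate 5. For the difference between the ages DESeq2 passed 2 genes, and 0 to 1657 passed without 1 library, the 1657 without 24m replicate 4. The difference was 0.013 for Trib3 by limma-voom and from -0.16 to 0.22 without 1 library, and for Asns -0.044 after the correction and from -0.048 to 0.30 without 1 library.

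With the mouse as a replicate block the difference was 0.016 for Trib3 by limma-voom, the run effect was 0.013 for Chac1 by edgeR, and no call changed. Between the runs at 6m the log2 fold change was 0.089 for Ddit3 and 0.054 for Chac1 after the correction and 0.024 for Chac1 by limma-voom. Without 1 library it ran from -0.10 to 0.059 for Ddit3, -0.13 to 0.042 for Trib3, -0.048 to 0.084 for Asns, -0.22 to 0.16 for Chac1 and -0.10 to 0.0077 for Xbp1. Without 1 library the difference in mean absolute deviation, older minus young on the log2 scale, ran from -0.056 to 0.070 for Asns and -0.23 to 0.10 for Chac1 at 28m, and from -0.0099 to 0.18 for Ddit3, -0.050 to 0.0020 for Xbp1 and -0.0067 to 0.70 for Sesn2 at 24m. Where a result changed, the cause was not tested. In the 6m libraries of the first run Trib3 had 18 to 43 counts, Asns 24 to 44, Sesn2 40 to 84 and Gdf15 at most 7, which bounds the precision of their values; how far depth sets their spread was not tested.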
